A study of Mus musculus with 8 samples.

Results

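Splicing factor genes were taken as the protein-coding mouse genes whose symbols start with Hnrnp, Srsf, Sf3a, Sf3b or Prpf in GENCODE M1, the annotation of genome build mm9. They numbered 50 of 22367 protein-coding genes and comprised 18 Hnrnp, 11 Srsf, 3 Sf3a, 5 Sf3b and 13 Prpf genes. At each gene, H3.3 peaks were counted in a window that ran from 10 kb upstream of the transcription start to 3 kb past the gene end. The windows of the 50 genes did not overlap each other. Relatives that the annotation lists under other names, such as Hnrpll and Hnrpdl, were outside the rule.

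The study followed the histone variant H3.3 in mouse embryonic stem cells (mESCs) with and without HIRA, a chaperone that deposits H3.3 in chromatin, through differentiation towards cardiomyocytes. HA-tagged H3.3 was precipitated with an anti-HA antibody from native chromatin digested with MNase, and the DNA was sequenced with a matching input library. There were 4 ChIP libraries, 1 for each of Hira-null cells at day 15, WT cells at day 15, Hira-null cells at day 0 and WT cells at day 0. The Hira-null cells were Clone104, a single clone, and the WT cells were the W9.5 line, so that clone and genotype cannot be told apart. Day 0 cells were undifferentiated mESCs, and day 15 cells had been differentiated as embryoid bodies from hanging drops, with the samples labelled CM for cardiomyocyte although the labels give ESC as their cell type.

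The lists held 7332 peaks in Hira-null cells at day 15, 27272 in WT cells at day 15, 17706 in Hira-null cells at day 0 and 22730 in WT cells at day 0. Each peak carried a score, which is 10 times the negative log10 of the p-value of the peak caller, from 50 up to a maximum of 3100. Read depth is unknown from these lists, so that a peak missing from a list may have been missed for want of depth. Scores were compared only by rank inside a list, except where an alternative setting kept scores of at least 100 for both genotypes. That setting takes no account of depth. With 1 library per condition there is no replicate check and no test was made. Intervals are 95% exact Clopper-Pearson intervals and cover counting error only. Those for peaks treat each peak as independent, although many genes hold several, and so can be too narrow. Of 6 stem cell marker genes, 1 had a peak in Hira-null and 1 in WT cells at day 15, against 4 in Hira-null and 6 in WT cells at day 0. Of 6 cardiomyocyte marker genes, 1 had a peak, in WT cells at day 15. Peaks of H3.3 do not report RNA, and neither the loss of Hira nor the identity of the day 15 cells could be checked from them.

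Splicing removes introns from nascent transcripts, and the genes examined encode proteins of its successive steps. The hnRNP proteins coat nascent RNA and often repress the use of nearby exons, while the SR proteins encoded by the Srsf genes bind exonic enhancers and promote exon use. SF3A and SF3B are the subcomplexes of the U2 snRNP that recognise the branch point, and the PRPF proteins take part in the U4/U6.U5 tri-snRNP and in the activation of the spliceosome. H3.3 is incorporated outside replication, and in transcribed genes it replaces histones that are displaced as the polymerase passes.

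Regions that a peak covered in every one of the 4 lists were found at 7 splicing factor genes, or 14% (5.82 to 26.7%), against 1.06% of all protein-coding genes. They were Hnrnpa1, Hnrnpa2b1, Hnrnpa3, Hnrnpl, Hnrnpu, Prpf38b and Srsf3. How reads that map to several places were treated is not given in the sources used here, and since processed pseudogenes are known for such genes as Hnrnpa1, Hnrnpa3 and Srsf3, reads from a gene and from its copies may not be told apart in their exons. These genes held 11 such regions, and 9 of them had their centre past the gene end or in the 3' UTR. The 200 bases at the centre of 3 such regions are shown to give the kind of DNA in which H3.3 was found whatever the genotype or the day. They are followed by 200 bases from the centre of WT day 15 peaks that no Hira-null day 15 peak overlapped, one in an intron of Sf3b3 and one in the promoter of Hnrnpab. Every stretch shown lies outside annotated exons, is written 5' to 3' on the strand of the gene in mm9 coordinates, and has CpG dinucleotides in capitals.
Srsf3 past the gene end, chr17:29182185-29182384, + strand: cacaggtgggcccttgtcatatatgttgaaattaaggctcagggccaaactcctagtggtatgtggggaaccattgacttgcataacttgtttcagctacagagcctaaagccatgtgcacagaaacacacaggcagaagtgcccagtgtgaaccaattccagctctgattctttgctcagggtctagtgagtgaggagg
Hnrnpa3 past the gene end, chr2:75508523-75508722, + strand: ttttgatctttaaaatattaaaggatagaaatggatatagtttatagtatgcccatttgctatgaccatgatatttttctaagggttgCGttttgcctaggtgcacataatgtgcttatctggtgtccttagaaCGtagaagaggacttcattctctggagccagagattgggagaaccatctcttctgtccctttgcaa
Hnrnpu intron, chr1:180255767-180255966, - strand: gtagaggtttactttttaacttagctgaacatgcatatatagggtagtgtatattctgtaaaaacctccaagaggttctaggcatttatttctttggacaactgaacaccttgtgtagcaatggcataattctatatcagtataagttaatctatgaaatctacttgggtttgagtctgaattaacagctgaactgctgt
Sf3b3 intron, chr8:113353679-113353878, - strand: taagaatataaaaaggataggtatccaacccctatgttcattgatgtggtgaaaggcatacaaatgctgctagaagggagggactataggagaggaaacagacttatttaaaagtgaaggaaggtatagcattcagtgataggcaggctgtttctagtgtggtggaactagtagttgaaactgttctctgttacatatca
Hnrnpab promoter, chr11:51420867-51421066, - strand: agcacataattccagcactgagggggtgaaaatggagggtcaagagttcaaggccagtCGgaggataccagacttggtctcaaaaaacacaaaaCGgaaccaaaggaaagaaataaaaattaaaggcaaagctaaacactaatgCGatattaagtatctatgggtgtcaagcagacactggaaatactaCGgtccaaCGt

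The capitals are few. The stretch at Hnrnpab held 5 CpG, against 2 at Hnrnpa3 and none at Srsf3, Hnrnpu and Sf3b3. Over all peaks at splicing factor genes, the 300 bases around the peak centre had a median GC content of 40.2% in Hira-null cells at day 15 and 39.7% in WT cells at day 15, against 42% and 42.3% over the whole of these lists. At day 0 the medians were 40.5% in Hira-null and 42.3% in WT cells, against 46% and 45.3% over the whole lists. The ratio of observed to expected CpG had a median of 0.104 in Hira-null and 0.131 in WT cells at day 15, against 0.152 and 0.177 over the whole lists, so that low CpG content was common to peaks in general. Promoters (250 bases before to 50 after the start) had a median ratio of 0.877 at the splicing factor genes, against 0.534 over all genes. The motif CCGGAAG, of the kind bound by ETS factors, was searched on both strands. It occurred in 14 of the 50 promoters (28%), against 10.8% of all protein-coding promoters. It occurred at none of 72 Hira-null and 1 of 165 WT peak centres at these genes at day 15, against 0.464% and 0.942% of all peaks of these lists. A match to these letters is a description of the sequence and not a bound site.

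Most splicing factor genes carried H3.3 peaks at day 15 in both genotypes. In Hira-null cells at day 15, 28 of 50 genes had a peak, or 56% (41.3 to 70%), against 15.2% of all protein-coding genes. In WT cells at day 15, 41 of 50 had a peak, or 82% (68.6 to 91.4%), against 39.4%. Undifferentiated cells differed more between the genotypes. In Hira-null cells at day 0, 11 of 50 genes had a peak, or 22% (11.5 to 36%), which was close to the 20.3% of all genes. In WT cells at day 0, 33 of 50 had a peak, or 66% (51.2 to 78.8%), against 35.4%. The shortest of the lists, that of Hira-null cells at day 15, thus held a peak at more splicing factor genes than the longer list of Hira-null cells at day 0. With every list reduced to its 7332 highest scoring peaks, 28 genes (56%) had a peak in Hira-null and 34 (68%) in WT cells at day 15, against 15.2% and 18.2% of all genes. At day 0, 5 genes (10%) had one in Hira-null cells, at the level of the 10.1% of all genes, and 26 (52%) in WT cells, against 16.5%.

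**Figure D1:**
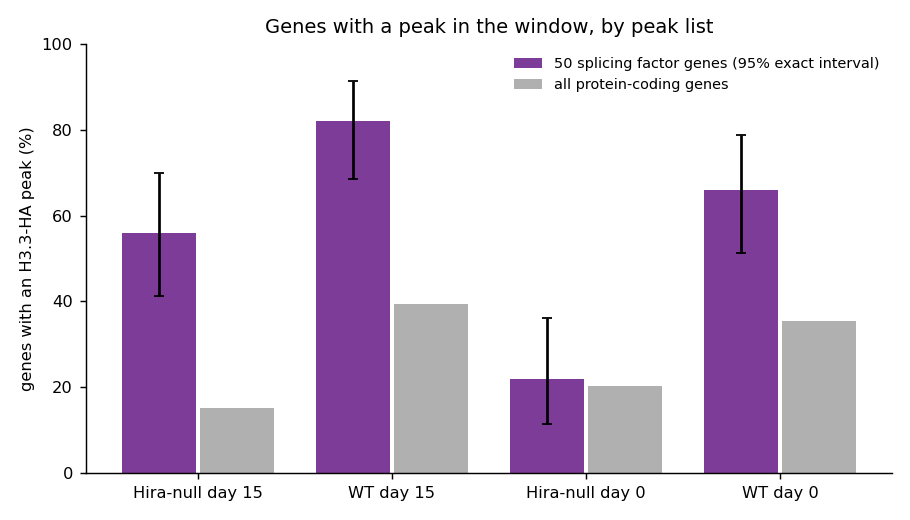
Percent of genes whose window was touched by an H3.3-HA peak, for the 50 splicing factor genes (purple, with 95% exact intervals for counting error only) and all 22367 protein-coding genes (grey), in each of the 4 peak lists. The splicing factor genes stand at 56, 82, 22 and 66%, above the grey bars at 15.2, 39.4 and 35.4% and near the 20.3% of Hira-null cells at day 0.

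Counted by length, peaks covered 113 kb, or 7.2%, of the windows of the splicing factor genes in Hira-null cells at day 15, against 0.452% of the windows of all genes, which is 15.9 times as much. The ratio was 6.89 in WT cells at day 15, 2.25 in Hira-null cells at day 0 and 6.48 in WT cells at day 0. These ratios are over summed windows, and although the median window was 27.7 kb for the splicing factor genes and 28.4 kb for all genes, the mean was 31.5 kb for the splicing factor genes and 58.5 kb for all genes. Among genes with windows of 21.2 to 39.1 kb, the splicing factor genes held 6.44 Hira-null peaks per 100 kb at day 15, against 0.859 over all genes of these lengths, and 10.6 WT peaks, against 3.22. At day 0 they held 1.29 Hira-null peaks per 100 kb, against 0.736, and 7.87 WT peaks, against 2.04. A further 65 symbols for splicing proteins of other names, such as the snRNP core and kinases of SR proteins, matched 66 annotation entries. These entries gave similar shares, with a peak at 51.5% in Hira-null and 87.9% in WT cells at day 15. At day 0 the shares were 25.8% in Hira-null and 68.2% in WT cells.

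WT peaks are dense on chromosomes 8 and 11, which held 33.4% of the WT day 15 list. These chromosomes held 20% of the WT day 0 list, against 9.57% of the Hira-null day 15 and 9.26% of the Hira-null day 0 list. Of the splicing factor genes, 7 lie there, with Sf3b3 on chromosome 8 and Hnrnpab, Hnrnph1, Prpf8, Sf3a1, Srsf1 and Srsf2 on chromosome 11. Without these chromosomes, 53.5% of the other 43 genes had a peak in Hira-null and 79.1% in WT cells at day 15, against 15.3% and 35.1% of all genes outside them. At day 0 the shares were 25.6% in Hira-null and 62.8% in WT cells, against 20.6% and 33.3%.

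Gene by gene, fewer splicing factor genes were marked in both genotypes at day 0 than at day 15. At day 15, 27 genes (54%) had a peak in both genotypes, against 11.1% of all genes, and 14 (28%) had one in WT cells alone, against 28.3%. At day 0, 10 genes (20%) had a peak in both genotypes, against 13.5% of all genes, and 23 (46%) had one in WT cells alone, against 21.9%. Of the splicing factor genes with a WT peak, 65.9% also had a Hira-null peak at day 15, against 28.2% over all genes. At day 0 this share was 30.3%, against 38.1%. A single gene had a peak in Hira-null cells alone on each day, namely Sf3a3 at day 15 and Prpf18 at day 0. Between the days, 19 genes (38%) had a peak in Hira-null cells at day 15 and not at day 0, against 8.31% of all genes. The same gain in WT cells was seen at 9 genes (18%), against 15.6% of all genes. These shares include genes that already had a day 0 peak and could not gain one. Among genes without a WT day 0 peak, 9 gained one and 8 did not, against 3480 and 10976 over all genes. Among genes without a Hira-null day 0 peak, 19 gained one and 20 did not, against 1859 and 15968. The pattern with the most genes, 16, was a peak in Hira-null and WT cells at day 15 and in WT cells but not Hira-null cells at day 0. Peaks in all 4 lists were found at 9 genes, which were Hnrnpa1, Hnrnpa2b1, Hnrnpa3, Hnrnpd, Hnrnpl, Hnrnpu, Prpf38b, Sf3b1 and Srsf3. The share of all genes with either pattern was not computed, so whether they are unusual is not known.

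Single peaks were compared in the same way. Of 165 WT peaks at the splicing factor genes at day 15, 111 had no overlapping Hira-null peak, or 67.3% (59.5 to 74.4%), against 91.9% of the whole WT list and 92.7% of its peaks in the window of any protein-coding gene. Of 99 WT peaks at day 0, 90 had no overlapping Hira-null peak, or 90.9% (83.4 to 95.8%), against 72.7% of the whole list. The share was 83.3% for its peaks in gene windows, a value at the edge of the interval. The splicing factor genes thus stood well below peaks in gene windows at day 15, and at day 0 the excess over them was small. Against the whole lists, the directions were the same among high scoring peaks. In the top 10% of the WT list by score, 21 of 48 (43.8%, 29.5 to 58.8%) lacked a Hira-null peak at day 15, against 77.3% of all peaks in that class. In the lower scoring part of that list, below the median, 42 of 49 (85.7%) lacked one, against 95.2%. At day 0, 23 of 28 peaks in the top 10% (82.1%, 63.1 to 93.9%) lacked a Hira-null peak, against 62.6%. In the other direction, 14 of 72 Hira-null peaks at day 15 (19.4%, 11.1 to 30.5%) had no overlapping WT peak. This compares with 69.2% of the whole Hira-null list and 60.8% of its peaks in gene windows. In the top 10% of that list, none of the 14 peaks at these genes (0 to 23.2%) lacked one, against 37.1% of all peaks in that class.

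At 19 genes (38%) there were at least 3 WT day 15 peaks without a Hira-null peak, against 13.4% of all genes. The splicing factor genes also held more WT day 15 peaks, with a mean of 3.3 per gene against 1.24 over all genes. The count therefore does not mean that more of their WT peaks lacked a Hira-null peak. That share was lower, at 67.3% against 92.7% of peaks in gene windows. At least 3 Hira-null day 15 peaks were found at 12 genes (24%), against 2.08%.

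**Figure D2:**
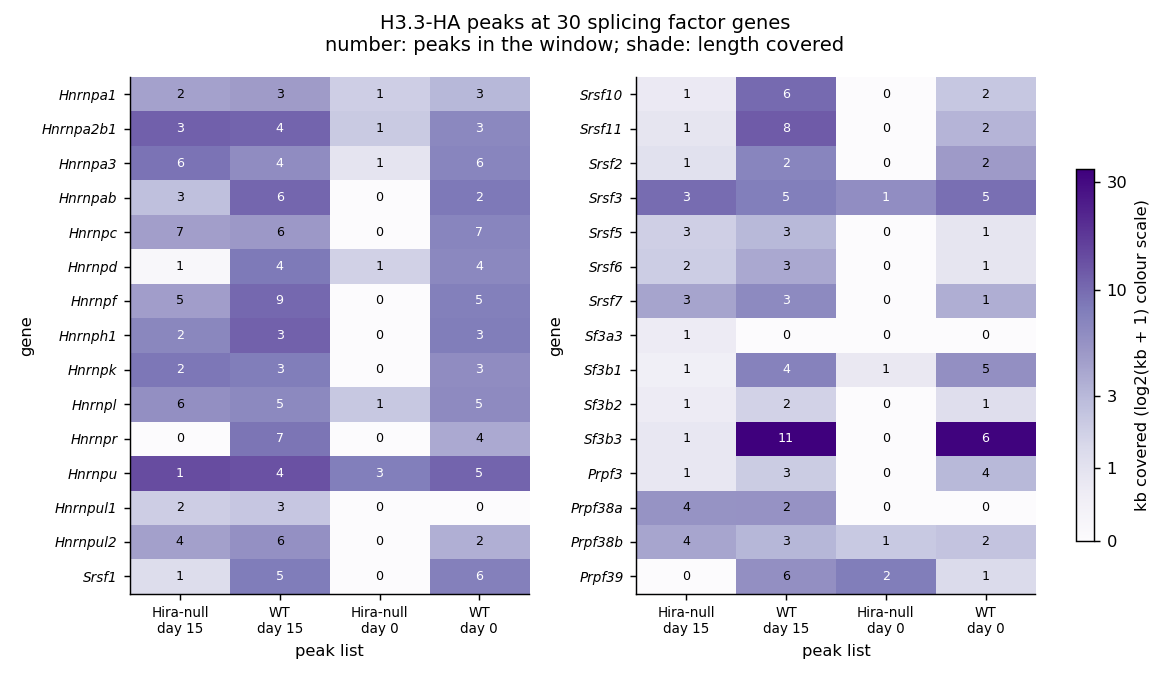
Number of H3.3-HA peaks in the windows of 30 splicing factor genes (figure in the cell), chosen by the rule for the genes whose peak numbers are given, and length covered in kb (shade, log2 colour scale), with a row per gene by family and a column per peak list. The column of Hira-null cells at day 0 is the emptiest, with peaks at 10 of the genes drawn, and Sf3b3 has the darkest cells, 34 kb in WT cells at day 15 and 32.2 kb in WT cells at day 0.

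H3.3 lay towards the 3' end of these genes. In Hira-null cells at day 15, no splicing factor gene was covered by a peak at its start, 5 (10%) were covered at the middle and 16 (32%) at the gene end, against 0.21%, 0.604% and 1.86% of all genes at the same points. In WT cells at day 15, 2 genes (4%) were covered at the start, 13 (26%) at the middle and 27 (54%) at the end, against 2.43%, 2.53% and 5.97%. In Hira-null cells at day 0 these counts were 0, 0 and 3 genes, against 0.349%, 1.04% and 1.21% of all genes. In WT cells at day 0 they were 3 (6%), 4 (8%) and 14 (28%), against 2.28%, 1.89% and 3.52%. At 3 kb past the gene end, 13 genes (26%) in Hira-null and 21 (42%) in WT cells at day 15 were still covered, against 1.59% and 4.05% of all genes. At day 0 the numbers were 3 (6%) in Hira-null and 12 (24%) in WT cells, against 1.49% and 2.44%.

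**Figure D3:**
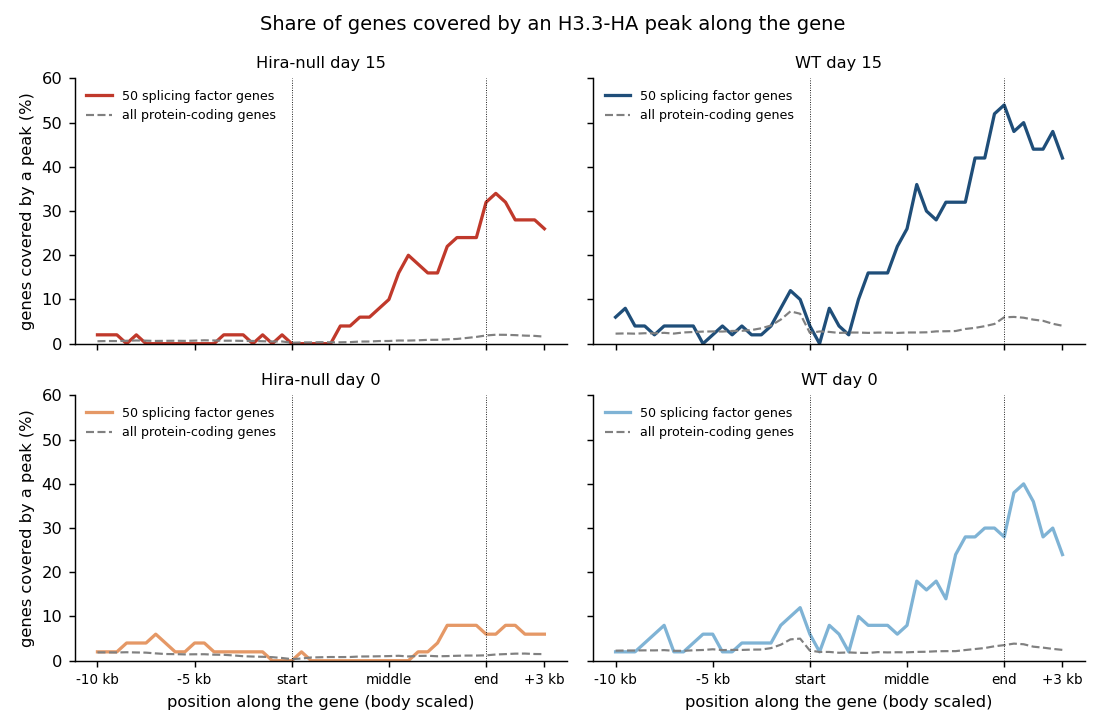
Percent of genes covered by an H3.3-HA peak at points along the gene, from 10 kb upstream through the scaled gene body to 3 kb past the end, for the 50 splicing factor genes (solid) and all protein-coding genes (dashed), with a panel for each peak list. The solid line climbs through the gene body and reaches 32% at the gene end in Hira-null cells at day 15 and 54% in WT cells at day 15, against 1.86% and 5.97% on the dashed lines.

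Placed by the centre of the peak, 41 of 72 Hira-null day 15 peaks at these genes were past the gene end or in the 3' UTR, or 56.9% (44.7 to 68.6%), against 26.6% over all genes. In WT cells at day 15 the number was 56 of 165, or 33.9% (26.8 to 41.7%), against 15.1%. The 3' UTR and the 3 kb past the end make up more of the windows of the splicing factor genes, 14.1%, than of all windows, 7.08%. Relative to that length, the Hira-null day 15 peaks were 4.04 times and the WT day 15 peaks 2.4 times as frequent there, against 3.76 and 2.13 times over all genes. At day 0, the Hira-null peaks were 2.53 times and the WT peaks 2.72 times as frequent there, against 1.53 and 1.75 times over all genes, with 5 of 14 Hira-null peaks behind the first value. Peaks that touched the window but were centred more than 3 kb past the end counted as past the end too. Such centres reached 6.47 kb in Hira-null and 4.03 kb in WT cells at day 15, so that these ratios can be too high. With length allowed for in this rough way, the preference of peaks for the gene end was close to that over all genes at day 15 and above it at day 0. A peak at the gene end was present at 21 genes (42%) in Hira-null cells at day 15, against 4.91% of all genes, and at 31 genes (62%) in WT cells at day 15, against 14.1%. Peaks in promoters, the 3 kb before the start, were present at fewer genes. A promoter peak was present at 3 genes (6%, 1.25 to 16.5%) in Hira-null cells at day 15, against 1.43% of all genes, and at 8 genes (16%, 7.17 to 29.1%) in WT cells at day 15, against 12.6%.

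WT peaks at gene ends had a Hira-null counterpart more often than WT peaks elsewhere in the windows. Of the WT day 15 peaks at gene ends, 28 of 56 (50%) had no Hira-null peak, against 83 of 109 (76.1%) elsewhere in the windows. At promoters the number was 8 of 9, against 95.2% of promoter peaks over all genes, and in introns 59 of 80 (73.8%), against 94.7%. Over all genes the share was 79.5% past the gene end and 83.5% in the 3' UTR, so that the order of positions was shared with genes in general and the level was lower at the splicing factor genes. At day 0, 31 of 38 WT peaks at gene ends (81.6%) had no Hira-null peak, against 59 of 61 (96.7%) elsewhere. Over all genes the day 0 shares were 82.1% past the gene end, 88.8% in the 3' UTR, 83.8% in introns and 92.6% in promoters. Many of these peaks also touched the window of a neighbouring gene, which was so for 56.9% of Hira-null and 52.1% of WT peaks at day 15 and for 42.9% of Hira-null and 44.4% of WT peaks at day 0. Counting only peaks that touched no other window, 14 genes had a peak in Hira-null and 29 in WT cells at day 15, against 7 in Hira-null and 18 in WT cells at day 0. The share over all genes under a like rule was not computed, so that these counts have no background to be set against. Which of the neighbouring genes a shared peak belongs to was not tested.

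Among the families, the Hnrnp genes carried peaks at 13 of 18 genes in Hira-null and 17 of 18 in WT cells at day 15, against 6 in Hira-null and 14 in WT cells at day 0. The Srsf genes carried them at 8 of 11 genes in Hira-null and 10 of 11 in WT cells at day 15, against 1 in Hira-null and 9 in WT cells at day 0. At day 0, Srsf3 was the only Srsf gene with a Hira-null peak. The Sf3b genes carried peaks at 3 of 5 genes in Hira-null and 4 of 5 in WT cells at day 15, and at 1 in Hira-null and 3 in WT cells at day 0. The Prpf genes carried them at 3 of 13 in Hira-null and 9 of 13 in WT cells at day 15, and at 3 in Hira-null and 6 in WT cells at day 0. These Prpf shares were 23.1% and 69.2% at day 15 and 23.1% and 46.2% at day 0. Over all genes the shares were 15.2% in Hira-null and 39.4% in WT cells at day 15, and 20.3% and 35.4% at day 0. The Hnrnp shares at day 15 were 72.2% in Hira-null and 94.4% in WT cells. The Srsf share in Hira-null cells was 72.7% at day 15 and 9.09% at day 0. Of the 3 Sf3a genes, only Sf3a1, with 3 WT day 15 and 2 WT day 0 peaks, and Sf3a3 had any.

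**Figure D4:**
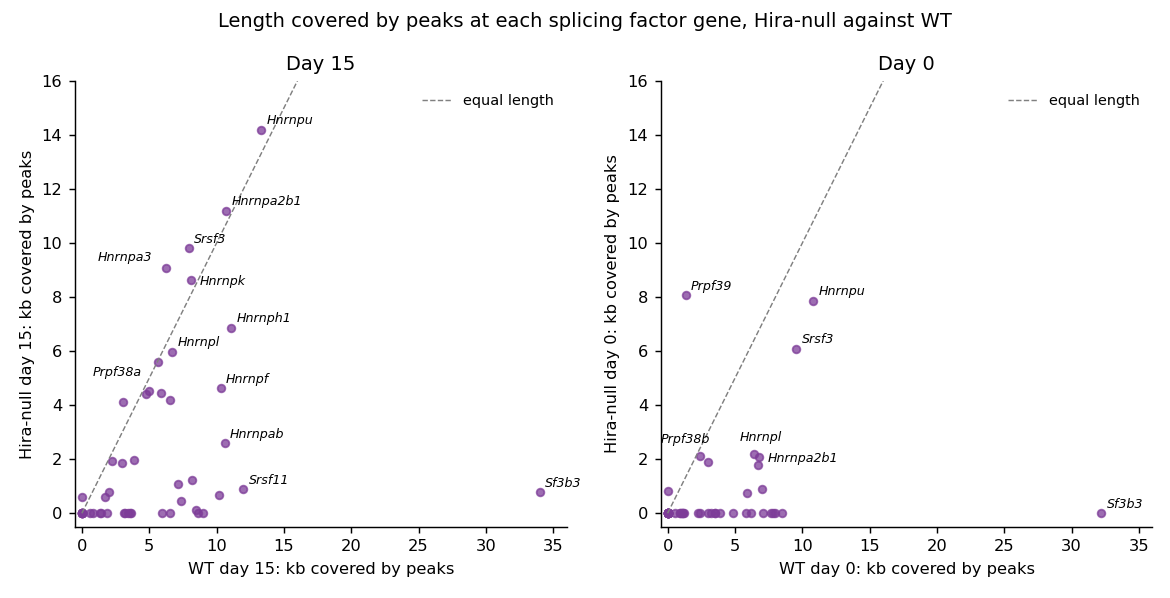
Length covered by H3.3-HA peaks in the window of each splicing factor gene, Hira-null (vertical axis, kb) against WT (horizontal axis, kb), at day 15 (left) and day 0 (right), with the dashed line at equal length. At day 15 a group led by Hnrnpu (14.2 kb in Hira-null, 13.3 kb in WT cells) lies along the line, and at day 0 Prpf39 (8.07 kb in Hira-null, 1.34 kb in WT cells) is the named gene above it.

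Hnrnp and Srsf genes held most of the highest scoring peaks, with Sf3b3 and Prpf39 the others among the first 3 of each list. Hnrnpu encodes the nuclear matrix protein hnRNP U, which binds RNA and chromatin. A single Hira-null day 15 peak of 15083 bp ran from inside its body to beyond its end at the maximum score of 3100, which 14 peaks of that list share. Its window held 1 Hira-null and 4 WT peaks at day 15 and 3 Hira-null and 5 WT peaks at day 0, and its highest WT day 15 peak, of 10350 bp, ranked 11 of the list. Hnrnpu had the highest scoring peak of any splicing factor gene in Hira-null cells at day 0 (684.95, rank 235) and in WT cells at day 0 (957.41, rank 26) also. The covered length at Hnrnpu was 14.2 kb in Hira-null and 13.3 kb in WT cells at day 15, and 7.87 kb in Hira-null and 10.8 kb in WT cells at day 0, so that it was marked in every list.

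Srsf3 encodes an SR protein that controls the splicing of its own transcript. It held 3 Hira-null and 5 WT peaks at day 15 and 1 Hira-null and 5 WT peaks at day 0. Its main Hira-null day 15 peak, of 11033 bp and also at the score of 3100, was centred 0.59 kb past the gene end, and no other gene's window lay under it. The length covered was 9.82 kb in Hira-null and 7.94 kb in WT cells at day 15, against 6.09 kb in Hira-null and 9.55 kb in WT cells at day 0. The sequence shown from this gene lies inside the part, 0.947 to 3 kb past its end, that all 4 lists covered.

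Of the A/B type hnRNP genes, Hnrnpa1, Hnrnpa2b1 and Hnrnpa3 had peaks in every list. Hnrnpa2b1, whose product binds RNA in the nucleus and in transported granules, held 3 Hira-null and 4 WT peaks at day 15 and 1 Hira-null and 3 WT peaks at day 0. Its largest Hira-null day 15 peak was 13661 bp long with a score of 2905.94 (rank 16), and it also touched the windows of the neighbours Cbx3 and Nfe2l3. Hnrnpa1, the gene of an abundant repressor of exon use, held 2 Hira-null and 3 WT peaks at day 15 and 1 Hira-null and 3 WT peaks at day 0. Hnrnpa3, which encodes a close relative, held 6 Hira-null and 4 WT peaks at day 15 and 1 Hira-null and 6 WT peaks at day 0. The length covered at Hnrnpa3 was 9.08 kb in Hira-null and 6.28 kb in WT cells at day 15, against 0.91 kb in Hira-null and 7.04 kb in WT cells at day 0, and so the order of the genotypes differed between the days.

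Other Hnrnp genes were marked in both genotypes at day 15 and in WT cells alone at day 0. Hnrnpc, whose product binds uridine tracts, held 7 Hira-null and 6 WT peaks at day 15, and none in Hira-null and 7 in WT cells at day 0. Hnrnpf, for a protein that binds guanosine tracts, held 5 Hira-null and 9 WT peaks at day 15, and none in Hira-null and 5 in WT cells at day 0. Hnrnph1, for its close relative, held 2 Hira-null and 3 WT peaks at day 15, and none in Hira-null and 3 in WT cells at day 0. Among the peaks of Hnrnph1 was the second ranked peak of the entire WT day 15 list, 8405 bp long with a score of 2853.32. Hnrnph1 lies on chromosome 11, where WT peaks are dense. Hnrnpk, which encodes a KH domain protein that binds cytidine-rich sequence, held 2 Hira-null and 3 WT peaks at day 15, and none in Hira-null and 3 in WT cells at day 0. The length covered at Hnrnpk was 8.64 kb in Hira-null and 8.07 kb in WT cells at day 15, against none in Hira-null and 6.21 kb in WT cells at day 0. Hnrnpab, for a protein related to hnRNP A and B, held 3 Hira-null and 6 WT peaks at day 15, and none in Hira-null and 2 in WT cells at day 0. Hnrnpul2, for an hnRNP U-like protein, held 4 Hira-null and 6 WT peaks at day 15, and none in Hira-null and 2 in WT cells at day 0.

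The remaining Hnrnp genes differed from this. Hnrnpl, whose product binds CA repeats, held 6 Hira-null and 5 WT peaks at day 15 and 1 Hira-null and 5 WT peaks at day 0. Hnrnpd, for a protein that binds AU-rich elements and speeds mRNA decay, held 1 Hira-null and 4 WT peaks at day 15 and 1 Hira-null and 4 WT peaks at day 0. Its Hira-null day 15 peak reached only 0.129 kb into the window, and its Hira-null day 0 peak lay upstream, centred at -7.68 kb from the start, so neither overlapped the WT peaks of the same day. Hnrnpul1, for an hnRNP U-like protein, held 2 Hira-null and 3 WT peaks at day 15 and none at day 0. Hnrnpr, whose product is an RNA-binding protein related to hnRNP Q, held none in Hira-null and 7 in WT cells at day 15, and none in Hira-null and 4 in WT cells at day 0. Hnrnpa0, Hnrnpm and Hnrnph3 had 3 to 4 WT day 15 peaks each and none in Hira-null cells.

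In the Srsf family, the WT peaks of several genes had little counterpart in Hira-null cells. Srsf1, the gene of a founding SR protein, held 1 Hira-null and 5 WT peaks at day 15, and none in Hira-null and 6 in WT cells at day 0. Its highest WT day 15 peak scored 1324.83 and ranked 20 of that list. Srsf11 held 1 Hira-null and 8 WT peaks at day 15, and none in Hira-null and 2 in WT cells at day 0, with 0.884 kb covered in Hira-null and 12 kb in WT cells at day 15. Srsf10, for an SR protein that represses splicing when dephosphorylated, held 1 Hira-null and 6 WT peaks at day 15, and none in Hira-null and 2 in WT cells at day 0. Srsf2 held 1 Hira-null and 2 WT peaks at day 15, and none in Hira-null and 2 in WT cells at day 0. Srsf2, Srsf10 and Srsf11 thus had 0.688 to 1.08 kb covered in Hira-null cells at day 15, against 7.12 to 12 kb in WT cells. Srsf1 and Srsf2 lie on chromosome 11, where WT peaks are dense, while Srsf10 lies on chromosome 4 and Srsf11 on chromosome 3.

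Srsf5, Srsf6 and Srsf7 had their day 15 peaks in Hira-null cells past the gene end or in the 3' UTR without exception. Srsf5 held 3 Hira-null and 3 WT peaks at day 15, and none in Hira-null and 1 in WT cells at day 0. The highest of the Hira-null peaks at Srsf5, of 8185 bp, scored 1572.75 but was centred 6.47 kb past the gene end, outside the window that it touched, and also touched the window of Slc10a1. Srsf6 held 2 Hira-null and 3 WT peaks at day 15, and none in Hira-null and 1 in WT cells at day 0. Srsf7, for a zinc knuckle SR protein, held 3 Hira-null and 3 WT peaks at day 15, and none in Hira-null and 1 in WT cells at day 0. Srsf4 and Srsf9 had 1 and 2 WT peaks at day 15 and none in Hira-null cells.

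Of the U2 snRNP genes, Sf3b3 had the greatest covered length of all 50 genes. It encodes a propeller protein of the SF3B complex. Its window held 1 Hira-null and 11 WT peaks at day 15, and none in Hira-null and 6 in WT cells at day 0. Peaks covered 0.783 kb in Hira-null and 34 kb in WT cells at day 15, and none in Hira-null and 32.2 kb in WT cells at day 0, so that WT H3.3 lay across most of its body. It lies on chromosome 8, where WT peaks are dense. Sf3b1, which encodes the subunit that contacts the branch point and is often mutated in myelodysplasia, held 1 Hira-null and 4 WT peaks at day 15 and 1 Hira-null and 5 WT peaks at day 0. Sf3b2 held 1 Hira-null and 2 WT peaks at day 15, and none in Hira-null and 1 in WT cells at day 0. Sf3a3 held 1 Hira-null peak at day 15, in the promoter with a score of 55.8, near the lowest of the list, and none in the other lists. Sf3b4 had 2 WT day 15 peaks only.

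Among the Prpf genes the Hira-null day 15 peaks were confined to Prpf3, Prpf38a and Prpf38b. Prpf38b held 4 Hira-null and 3 WT peaks at day 15 and 1 Hira-null and 2 WT peaks at day 0. Prpf38a, for a protein of the spliceosome before its activation, held 4 Hira-null and 2 WT peaks at day 15 and none at day 0, with 5.61 kb covered in Hira-null and 5.66 kb in WT cells, so that the larger number of Hira-null peaks split a similar length. Prpf3, for a U4/U6 snRNP protein mutated in retinitis pigmentosa, held 1 Hira-null and 3 WT peaks at day 15, and none in Hira-null and 4 in WT cells at day 0. Prpf39, whose yeast counterpart belongs to the U1 snRNP, held none in Hira-null and 6 in WT cells at day 15, and 2 in Hira-null and 1 in WT cells at day 0. Both Hira-null day 0 peaks of Prpf39 lay upstream, centred at -3.34 and -8.21 kb from the start, and the WT day 0 peak lay at the gene end. Prpf8, the core protein of the U5 snRNP, had 4 WT day 15 peaks and no others. Prpf4, Prpf4b and Prpf6 had 1 to 4 WT day 15 peaks and none in Hira-null cells, while Prpf40b had 1 WT day 0 peak and Prpf18 had 1 Hira-null day 0 peak.

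**Figure D5:**
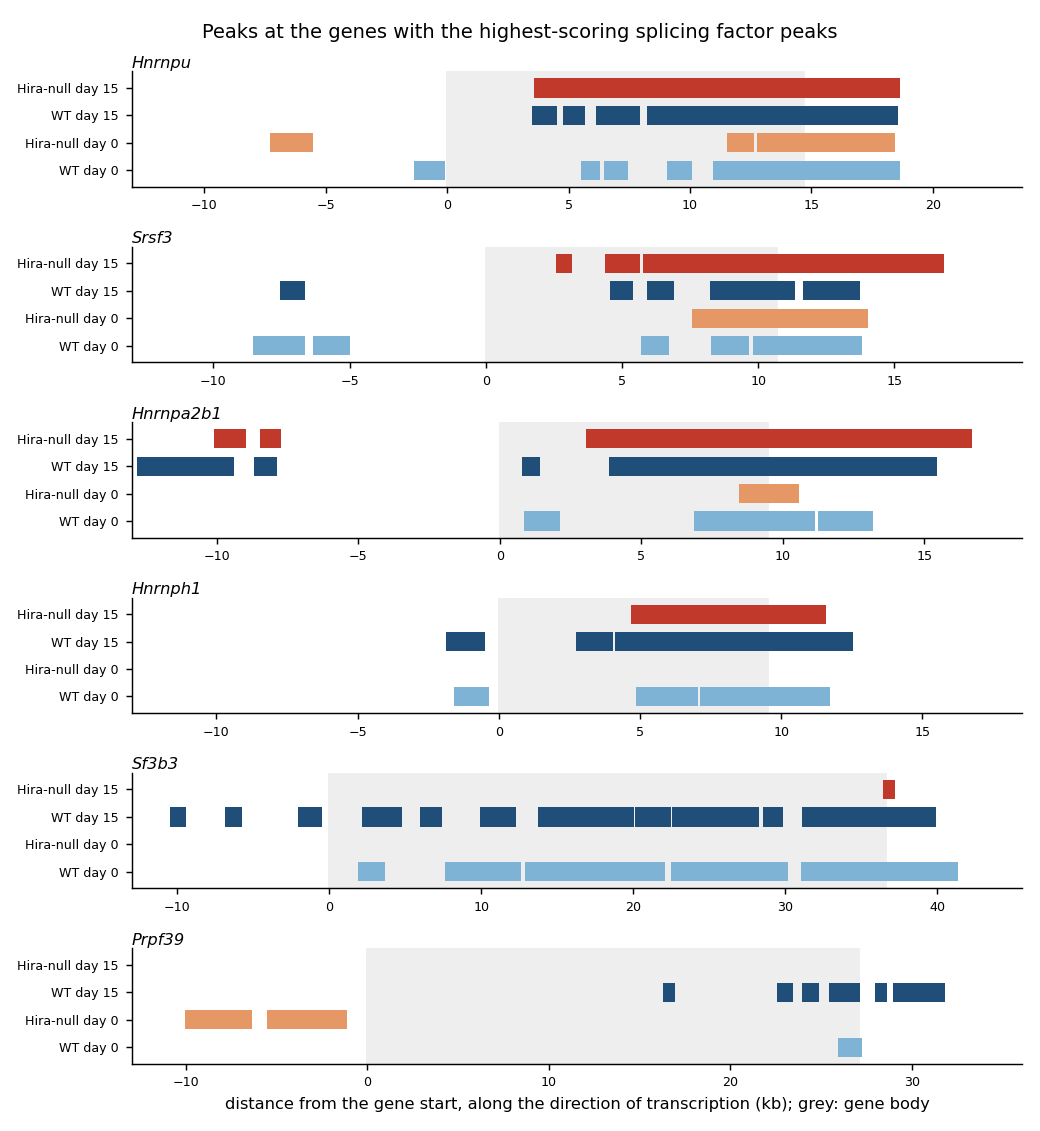
Peaks at the 6 genes that hold the 3 highest scoring splicing factor peaks of each list, drawn as bars against the distance in kb from the gene start in the direction of transcription, with a row per list and the gene body in grey. Bars crowd the 3' part of Hnrnpu, Srsf3, Hnrnpa2b1 and Hnrnph1, WT bars alone fill the body of Sf3b3 apart from 1 short Hira-null bar at day 15, and the Hira-null day 0 bars of Prpf39 lie upstream of the start.

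No peak of any list touched the windows of 6 genes, which were Hnrnph2, Prpf19, Prpf31, Sf3a2, Sf3b5 and Srsf12. Among them Hnrnph2 is the only splicing factor gene here on chromosome X, Prpf19 encodes a ubiquitin ligase of the spliceosome and Prpf31 a U4/U6 snRNP protein. Without knowledge of the depth, this says that no peak was called and not that H3.3 was absent.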

How the data were processed

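Only the 4 deposited peak lists were used, 1 per ChIP library. The authors aligned paired-end reads to mm9 with Bowtie and called peaks with MACS 1.4.2, and the input libraries enter only as far as that calling used them, which is not given in the sources used here. The deposited score of each peak is 10 times the negative log10 of its p-value. Genes were the protein-coding genes of GENCODE M1. A peak counted for a gene when it shared at least 1 base with the window, and its position was that of its midpoint. A WT peak was taken to lack a Hira-null counterpart when it shared no base with the Hira-null list of its day. Shares of genes were set beside those of all 22367 protein-coding genes. Sequence came from the mm9 genome.

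The splicing factor genes and the comparison lists were chosen with earlier results of these data known. Peak numbers on both days are given for the 12 genes with the most peaks, for every gene with a Hira-null day 15 peak and for the holders of the 3 highest scoring peaks of each list. Some items are not reported here. Counting was tested on simulated peaks and checked against bedtools 2.31.1, in Python 3.11.15 with pandas 2.3.3 and scipy 1.17.1.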

Additional observations from a re-analysis of the deposited data

Results flagged for a closer look

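At 7 splicing factor genes the difference in covered length between the genotypes had opposite signs on the days. The difference was not tested, since each condition had 1 library. The share of all genes with such opposite signs was not computed. At day 15, Hira-null cells had the greater length at 7 of 42 splicing factor genes with a peak (16.7%), against 15.4% of all such genes. At day 0 they had it at 2 of 34 (5.88%), against 34.3%. Hira-null minus WT length was 0.863 kb at day 15 and -2.94 kb at day 0 for Hnrnpu, 0.568 and -6.21 kb for Hnrnpk, and 1.87 and -3.46 kb for Srsf3. It was 2.8 kb at day 15 and -6.13 kb at day 0 for Hnrnpa3, 1.05 and -0.276 kb for Prpf38b, and 0.569 and -4.69 kb for Hnrnpa2b1. Prpf39 went the other way, at -5.92 kb at day 15 and 6.74 kb at day 0.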

How the results depend on the processing

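Of 78 values computed under 12 alternative settings, 59 stayed within 1.5 times a count or inside the interval of a percentage, and 19 moved. Set against all genes, the WT-only share at day 15 lay on either side, at 16.7% against 30.1% among genes of middle window length and at 38% against 18.8% with scores of at least 100. The share with a Hira-null day 0 peak did so too, at 29.2% against 15.8% among genes of middle length and at 12% against 13% in the gene body alone. With lists of equal length, Hira-null day 0 peaks were found at 5 genes (10%), against 10.1% of all genes. WT-only peaks at day 15 were found at 8 genes (16%), against 11.4%. Of the WT day 15 peaks, 53.2% lacked a Hira-null peak, against 85.4% of the whole list, and 50.6% lay at gene ends. With scores of at least 100, 46.4% of WT day 15 peaks lay at gene ends. The gene-end share over all genes was not computed under these settings. In the gene body alone, Hira-null day 0 peaks were found at 6 genes. Counting only peaks that touched no other gene's window gave 14 Hira-null day 15, 7 Hira-null day 0 and 18 WT day 0 genes, 13 WT-only genes at day 0 and 74.7% of WT day 15 peaks without a Hira-null peak. The share over all genes under a like rule was not computed, so that these values have no background beside them. Requiring cover of 50% of the WT peak, 74.5% of WT day 15 peaks lacked a Hira-null peak, against 93.8% of the whole list. The 24 genes of middle window length (21.2 to 39.1 kb) are fewer by construction. Of these, 16 (66.7%) had Hira-null day 15 and 19 (79.2%) WT day 15 peaks, against 15.1% and 40.9% of all such genes. At day 0, 7 (29.2%) had Hira-null and 17 (70.8%) WT peaks, against 15.8% and 33.4%. WT-only peaks were found at 4 genes (16.7%) at day 15 and 10 (41.7%) at day 0, against 30.1% and 23.9%. Of their WT day 15 peaks, 51.4% lacked a Hira-null peak, against 91.9% of the whole list. The cause of these changes was not tested.

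The lists hold peaks and not reads, so that depth, and any region just under the score of 50, cannot be weighed. Each condition is 1 library, WT and Hira-null cells are 1 line and 1 clone, and the midpoint of a long peak gives its position only roughly. Chromosomes 8 and 11 hold 33.4% of the WT day 15 peaks. Shares of genes with a peak outside them are in the report. Without them, 27.9% of splicing factor genes had WT-only peaks at day 15, against 24.3% of all genes. At day 0 the share was 39.5%, against 19.9%. Of their WT peaks, 64.1% at day 15 and 88.5% at day 0 lacked a Hira-null peak. At day 15, 35.9% of their WT and 53.1% of their Hira-null peaks lay at gene ends. No paired analysis was possible because each condition had 1 library.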
